A study of Mus musculus with 9 samples.

Results

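The smooth muscle actin and SRF contractile genes are 10 genes of the actin cytoskeleton: Acta2, Actg2, Tagln, Cnn1, Cnn2, Myl9, Tpm1, Tpm2, Srf and Vcl. They were chosen by symbol, with no measured value in the rule, although earlier results of these data were known when they were listed. All 10 were found among the 56691 genes of the table, each with 1 row. They were followed in NIH/3T3, an immortal line of mouse embryonic fibroblasts labelled wild type, in 9 RNA-seq libraries. 3 libraries came from cells given UVA at 10 J/cm2 together with α-arbutin, a hydroquinone glucoside (co-treated), 3 from cells given the same UVA dose alone (UVA), and 3 from control cells whose treatment label is empty. The titles of the UVA libraries read MOCK, and their group follows the treatment label, which gives UVA. All groups share the line, the serum-containing medium and the library kit. The sources used here do not give the dose of α-arbutin, its timing relative to UVA or the time of harvest. Nothing states that the libraries of a group came from separate cultures, so p-values measure the spread between these libraries, which may be technical. The study asked whether α-arbutin limits the damage that UVA does to fibroblasts.

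Contraction in smooth muscle and in activated fibroblasts rests on filaments of actin, along which tropomyosin lies and on which myosin pulls once its regulatory light chain is phosphorylated. Serum response factor (SRF) binds the CArG box in the promoters of many of these genes. Its partners MRTF-A and MRTF-B sense free actin monomers and drive cytoskeletal targets, whereas its ternary complex factor partners (ELK1, ELK3 and ELK4) drive the immediate early genes of the growth factor response. Smooth muscle α-actin is the usual marker of myofibroblasts, the contractile fibroblasts of healing wounds.

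The libraries held between 16.3 and 20.86 × 1e6 counts, with 21026 to 21815 genes above 0 counts. Of the 10 markers of fibroblasts that were followed, 9 were above the low-count filter, including Col1a1, Col1a2, Col3a1 and Vim. Of the 7 markers of differentiated smooth muscle, 3 were above the low-count filter and 0 of these were called in UVA cells. All but Smtn were scarce. Myocd, the smooth muscle cofactor of SRF, had 0 counts in all 9 libraries, and the smooth muscle myosin Myh11 had 0 to 8 counts in a library. The summed level of the 7 smooth muscle markers, most of it Smtn, was 49.2 to 54.0 counts per 1e6 counts (CPM) in co-treated cells, 49.8 to 56.6 CPM in UVA cells and 52.3 to 57.1 CPM in control cells. The fibroblast list moved with treatment. Its sum was 8690 to 9255 CPM in co-treated cells, 8994 to 9266 CPM in UVA cells and 12351 to 12712 CPM in control cells. Of its 9 tested genes 7 fell and 1 rose in UVA cells. Beside these counts and those that follow, 14.6% of all tested genes were called lower in UVA against control and 14.7% higher. Of 5 pericyte markers 1, Cspg4, was tested and rose in UVA cells, and 2 were at 0 in all 9 libraries. The sum was 59.8 to 70.8 CPM in co-treated cells, 55.7 to 69.7 CPM in UVA cells and 43.2 to 48.5 CPM in control cells. Cardiac markers summed to 2.93 to 5.25 CPM in co-treated cells, 3.49 to 6.60 CPM in UVA cells and 1.15 to 2.08 CPM in control cells, and Tnnt2, the 1 gene of these 6 that was tested, rose in UVA cells. Immune markers summed to at most 5.85 CPM in a library, with 1 called higher and 1 lower in UVA cells, and skeletal muscle, epithelial and endothelial markers to at most 6.69 CPM with 0 called. The part of these markers in the results below was not tested. In bulk RNA, fewer cells of a kind and less RNA per cell cannot be told apart.

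The 10 genes lie on 8 chromosomes, with positions here on mm39. Acta2 (ENSMUSG00000035783, smooth muscle α-actin) is at chr19:34218490-34232990 on the minus strand. Actg2 (ENSMUSG00000059430, enteric smooth muscle γ-actin) is at chr6:83489887-83513247 on the minus strand. Chromosome 9 carries 3 of them: Tagln (ENSMUSG00000032085, the actin-bundling protein transgelin) at chr9:45840917-45847356, Cnn1 (ENSMUSG00000001349, the smooth muscle calponin) at chr9:22010512-22020926 and Tpm1 (ENSMUSG00000032366, a tropomyosin) at chr9:66929872-66956688. Cnn2 (ENSMUSG00000004665, the calponin of non-muscle cells) is at chr10:79824418-79831896 on the plus strand. Myl9 (ENSMUSG00000067818, a regulatory myosin light chain) is at chr2:156617340-156623578 on the plus strand. Tpm2 (ENSMUSG00000028464, a further tropomyosin) is at chr4:43514711-43523765 on the minus strand. Srf (ENSMUSG00000015605, the transcription factor itself) is at chr17:46859255-46867101 on the minus strand. Vcl (ENSMUSG00000021823, vinculin, which ties actin to focal adhesions) is at chr14:20979466-21083744 on the plus strand, and shares 2235 bases with Ap3m1 on the opposite strand.

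The sequences below show where the CArG box, the binding element of SRF, stands before these genes. RefSeq promoter windows (build GRCm38.p6, 250 bases before to 50 bases after the gene start) were matched by symbol for 8 of the 10 genes, all but Actg2 and Tagln. A CArG box was counted as CC, 6 bases that are each A or T, and GG, and a CArG-like match had 1 of these inner 6 bases changed to C or G. The pattern is its own reverse complement, so a match stands on both strands. A CArG box was present in the windows of Cnn2, Myl9, Srf (2 matches) and Vcl, against 1.629% of all 32851 windows of that length. CArG-like matches were present in Acta2 (2 matches) and Myl9, against 8.499% of all windows. Of the 8 members with a window, 5 held either form, against 9.984% of all windows. The members were listed as contractile and SRF-regulated genes, so these shares describe the list and are not a test of it. Neither form was found in these windows of Cnn1, Tpm1 and Tpm2. For Acta2 the whole 250 bases upstream of the start are printed (chr19:34255374-34255623, minus strand), and for the others the matches with 20 bases on each side: Cnn2 (chr10:79988524-79988573, plus), Myl9 (chr2:156775283-156775394, plus), Srf (chr17:46556195-46556264, minus) and Vcl (chr14:20929151-20929200, plus). Each is written 5′ to 3′ on the gene's strand, with the CArG and CArG-like matches in capitals.
Acta2: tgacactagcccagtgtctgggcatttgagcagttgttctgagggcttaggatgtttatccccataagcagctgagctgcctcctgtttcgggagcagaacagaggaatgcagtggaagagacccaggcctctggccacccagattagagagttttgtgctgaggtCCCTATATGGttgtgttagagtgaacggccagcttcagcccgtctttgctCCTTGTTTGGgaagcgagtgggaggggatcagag
Cnn2: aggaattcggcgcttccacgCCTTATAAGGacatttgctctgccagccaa
Myl9: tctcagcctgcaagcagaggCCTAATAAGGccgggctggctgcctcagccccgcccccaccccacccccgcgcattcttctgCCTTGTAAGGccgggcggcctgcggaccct
Srf: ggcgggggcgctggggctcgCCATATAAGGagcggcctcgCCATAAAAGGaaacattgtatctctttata
Vcl: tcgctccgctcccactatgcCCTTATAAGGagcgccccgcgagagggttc
The matches of Acta2 began 84 and 34 bases upstream of the gene start, that of Cnn2 56 bases, those of Myl9 161 and 99 bases, those of Srf 82 and 62 bases and that of Vcl 227 bases upstream. Cnn2 and Vcl carried the same 10 bases, CCTTATAAGG. Further motifs were searched on both strands. CATTCC, the core bound by TEAD factors, was in the windows of Acta2, Tpm1 and Vcl and in 14.663% of all windows. TATAAA was in the window of Srf and in 13.616% of all windows, and neither of these overlapped a CArG match. A match describes letters in a window and does not show binding.

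Acta2 was the member with the largest difference between groups. Its level per length, in fragments per kilobase and 1e6 counts (FPKM), was 1.94, 2.74 and 1.88 in co-treated cells, 3.12, 2.77 and 2.43 in UVA cells and 16.15, 14.42 and 14.62 in control cells. These values rest on 70, 104 and 75 raw counts in co-treated cells, 125, 99 and 107 in UVA cells and 607, 561 and 670 in control cells. Every irradiated library, with or without α-arbutin, lay far below every control library. The gene fell 5.38-fold in UVA cells relative to control, with a log2 fold change of -2.43 ± 0.12, where the error is the SE of the fit and the 95% interval runs between -2.67 and -2.19 (adjusted p = 2.45e-15, edgeR quasi-likelihood test with Benjamini-Hochberg adjustment over 14151 genes, which holds for all adjusted p-values here). Counted from the lowest log2 fold change, it ranked 20 of the 14151 tested genes in that comparison. In co-treated cells it was 6.83-fold lower than in control cells, with a log2 fold change of -2.77 ± 0.12 (adjusted p = 4.96e-16). The 2 comparisons share the control libraries.

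**Figure D1:**
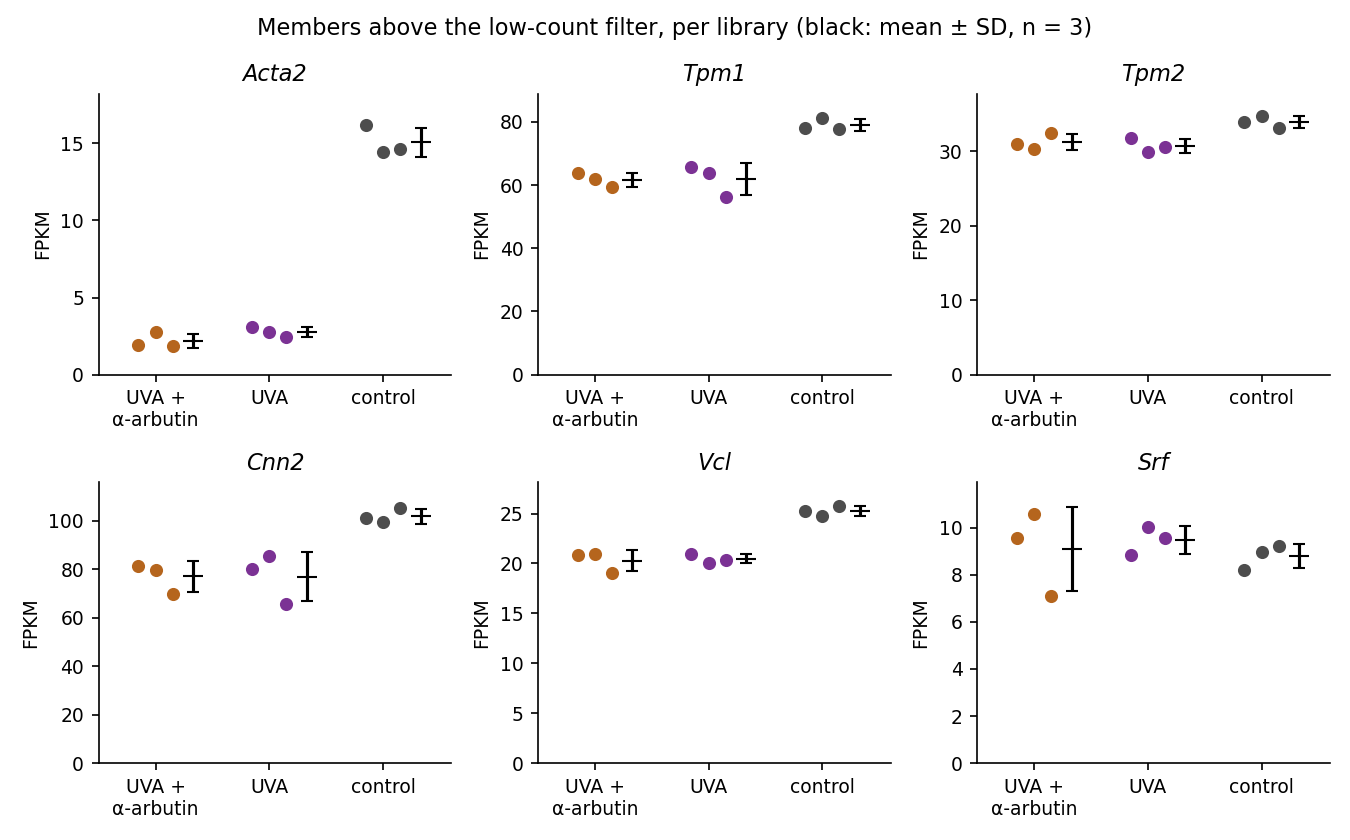
Level in FPKM of the 6 members above the low-count filter, 1 panel per gene, with 1 point per library for co-treated (UVA + α-arbutin), UVA and control cells; black marks are the mean ± SD (n = 3). Acta2 lies between 1.88 and 3.12 FPKM in the irradiated libraries and between 14.42 and 16.15 FPKM in the control libraries, while the control points of Tpm1, Cnn2 and Vcl sit above the others by a smaller step and those of Srf overlap.

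Between co-treated and UVA cells Acta2 differed by less. The mean was 2.19 ± 0.480 FPKM in co-treated cells and 2.77 ± 0.345 FPKM in UVA cells (SD, n = 3 each). The groups overlapped, since co-treated replicate 2 at 2.74 FPKM lay above UVA replicate 3 at 2.43 FPKM. The log2 fold change was -0.34 ± 0.15 (95% interval -0.65 to -0.04), with an unadjusted p of 0.0291 and an adjusted p of 0.701, which does not pass the threshold of 0.05.

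The other smooth muscle actin, Actg2, was near the limit of detection and lay below the low-count filter. It had 3, 4 and 5 raw counts in co-treated cells, 4, 12 and 5 in UVA cells and 3, 10 and 7 in control cells. The groups overlapped, and the ratio of summed counts, scaled to depth, was 1.07 for UVA over control with a 95% interval of 0.553 to 2.08 that covers counting error only. No difference was detectable at this depth.

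Within the actin family, the mean share taken by Acta2 was smaller in irradiated cells. Over the summed FPKM of 6 actin genes it was 0.153 ± 0.0296% in co-treated cells, 0.191 ± 0.0256% in UVA cells and 1.09 ± 0.0831% in control cells (SD, n = 3 each). An exact two-sided permutation test over libraries gave p = 0.1 for UVA against control and for co-treated against control, the smallest value that 3 libraries against 3 can give, and p = 0.3 for co-treated against UVA. Actb, the cytoplasmic β-actin, supplied 71.9% of the family in co-treated cells, 72.5% in UVA cells and 72.0% in control cells, and Actg1, the cytoplasmic γ-actin, supplied nearly all of the rest. Neither passed the test in UVA against control, with log2 fold changes of 0.09 for Actb (adjusted p = 0.0614) and 0.10 for Actg1 (adjusted p = 0.105). With some other settings 1 of them did: the family then had 1 gene called higher, among them with upper-quartile scaling, in the fit of the compared groups alone, with the replicate block, and without UVA replicate 1, UVA replicate 3, co-treated replicate 1 or co-treated replicate 3. Acta1, the skeletal actin, had at most 4 counts in a library, and Actc1, the cardiac actin, had 0 in all 9. Actin genes share near-identical coding sequence, so how the authors' counting split reads between them is uncertain.

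**Figure D2:**
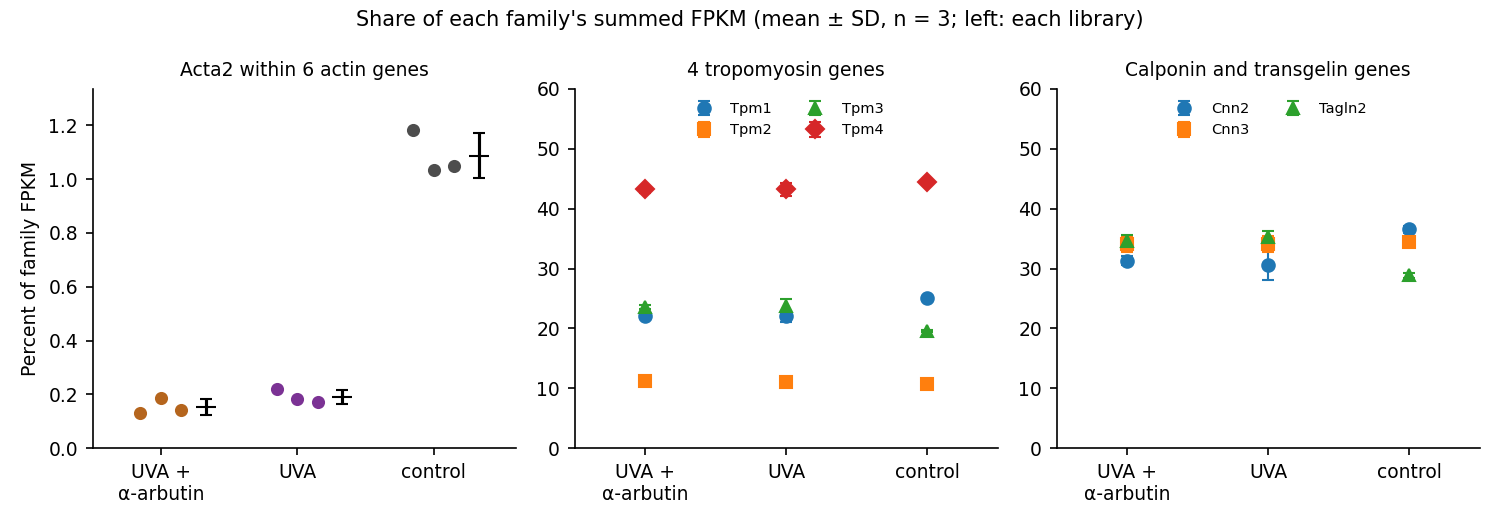
Percent of the summed FPKM of a gene family held by a gene, for co-treated, UVA and control cells. The left panel gives Acta2 among 6 actin genes in each library with the mean ± SD (n = 3), and the others give the mean ± SD of the tropomyosins and of the abundant calponin and transgelin genes; the Acta2 share is 0.153% and 0.191% in irradiated cells against 1.09% in control cells, and Tpm3 and Tagln2 take larger shares in irradiated cells.

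The tropomyosins, which lie along the filament and gate access to it, showed small differences that were not all one way. Tpm1 had 63.77, 61.96 and 59.29 FPKM in co-treated cells, 65.76, 63.72 and 56.10 in UVA cells and 78.12, 81.15 and 77.87 in control cells. All irradiated libraries lay below all control libraries. Tpm1 fell in UVA cells by 0.34 on the log2 scale (SE 0.05, adjusted p = 1.58e-06) and in co-treated cells by 0.35 relative to control (adjusted p = 1.07e-06). Tpm2 had 31.02, 30.30 and 32.45 FPKM in co-treated cells, 31.78, 29.93 and 30.65 in UVA cells and 33.91, 34.75 and 33.17 in control cells. Its groups did not overlap with control, but it did not pass the test: the log2 fold change was -0.12 ± 0.05 in UVA against control (adjusted p = 0.0546) and -0.11 ± 0.05 in co-treated against control (adjusted p = 0.103). The value for UVA is at the edge of the threshold, and Tpm2 passed in 7 of 17 other settings, among them without UVA replicate 1 (adjusted p = 0.0383), without co-treated replicate 3 (adjusted p = 0.0494) and with replicate number as a block (adjusted p = 0.0479).

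Of the remaining tropomyosins, Tpm4 fell by 0.19 (log2) in UVA cells (adjusted p = 0.00117), and Tpm3 rose by 0.12 (adjusted p = 0.0145). The Tpm3 call was lost without control replicate 1, without control replicate 3 and with limma on log2(TPM + 1), where the value was 0.070. As shares of the summed FPKM of the 4 tropomyosins, Tpm1 held 22.0% in co-treated cells, 22.0% in UVA cells and 25.1% in control cells, and Tpm3 held 23.6% in co-treated cells, 23.7% in UVA cells and 19.6% in control cells. The share of Tpm3 rests on FPKM, where its length is the deposited exonic size.

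Calponins and transgelins bind actin and restrain its interaction with myosin or bundle it. Cnn2 was the most abundant member per length, with 81.40, 79.79 and 69.90 FPKM in co-treated cells, 80.03, 85.32 and 65.53 in UVA cells and 100.99, 99.31 and 105.43 in control cells. The irradiated libraries were all below the control libraries, and replicate 3 was the lowest of both irradiated groups. Cnn2 fell in UVA cells by 0.39 on the log2 scale (SE 0.06, adjusted p = 2.30e-05) and in co-treated cells by 0.40 relative to control (adjusted p = 2.32e-05). The related Cnn3, a calponin of non-muscle cells, fell by 0.15 in UVA cells (adjusted p = 0.00447), while Tagln2, the transgelin of non-muscle cells, rose by 0.15 (adjusted p = 0.0206). The Tagln2 call was lost without control replicate 1, control replicate 2 or UVA replicate 2, and with limma on log2(FPKM + 1) or on log2(TPM + 1), where the value was 0.098.

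The smooth muscle forms of these proteins had few counts. Tagln had 7, 5 and 4 raw counts in co-treated cells, 4, 0 and 5 in UVA cells and 5, 4 and 10 in control cells. The groups overlapped, and the ratio of summed counts, scaled to depth, was 0.483 for UVA over control (95% interval 0.193 to 1.12, counting error only). Cnn1 had 0, 0 and 2 counts in co-treated cells, 0, 2 and 2 in UVA cells and 3, 1 and 2 in control cells, and its ratio for UVA over control was 0.680 (0.141 to 2.87). Tagln shares 3627 bases with Gm48529 and 108 bases with Pcsk7, both on the other strand, and the sources used here do not say whether counting used strand.

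Myl9 was at the bottom of the range. It had 0 counts in each of the 3 co-treated libraries and 0 in each of the 3 UVA libraries, which allows a level of up to 0.0579 CPM in co-treated cells and 0.0550 CPM in UVA cells (3 counts over the group; the exact Poisson 95% limit is 0.0712 CPM in co-treated cells and 0.0676 CPM in UVA cells), and 1, 0 and 1 counts in control cells. No difference was detectable at this depth. The regulatory light chains that these fibroblasts did express were Myl12a and Myl12b, close copies in tandem on chromosome 17, so reads may have been split between them. On the same strand, Gm49909 (5595 counts over all libraries) shares 8553 bases with Myl12a and 16772 bases with Myl12b. How reads in these stretches were counted is uncertain. Myl12a had 31.34, 30.51 and 29.80 FPKM in co-treated cells, 32.85, 35.01 and 28.42 in UVA cells and 42.26, 42.94 and 42.71 in control cells, and fell in UVA cells by 0.40 on the log2 scale (adjusted p = 2.01e-06). Myl12b did not pass the test (log2 fold change 0.10, adjusted p = 0.458).

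**Figure D3:**
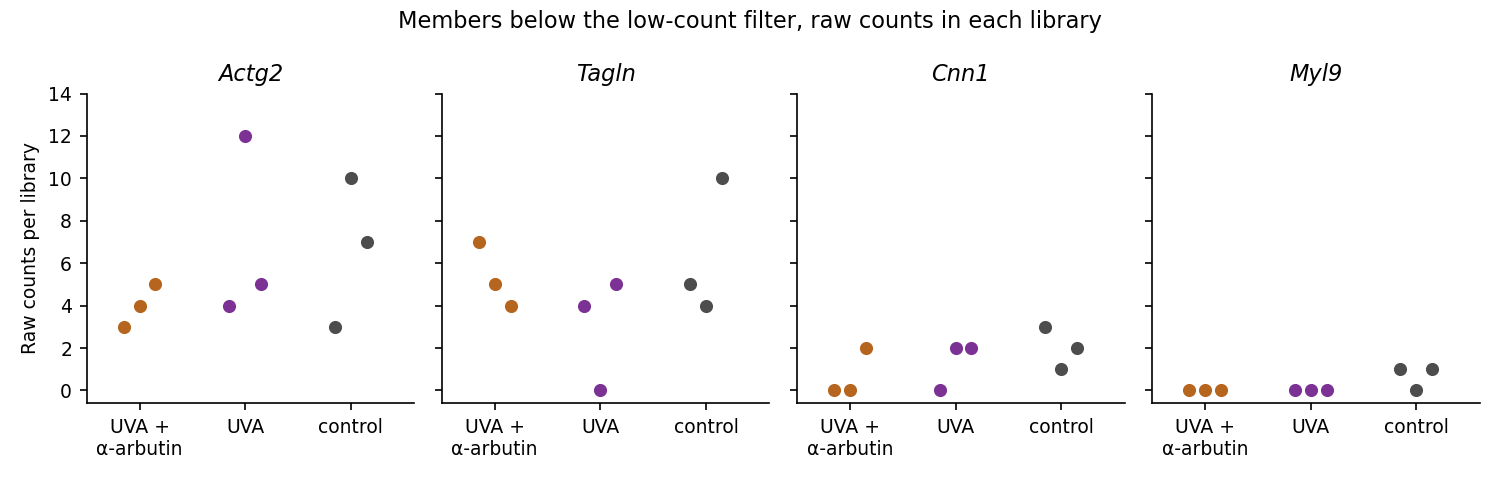
Raw counts in each library of the 4 members below the low-count filter, for co-treated, UVA and control cells. No gene exceeds 12 counts in any library, and the groups overlap in every panel.

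Srf did not pass the test in any comparison. Its level was 9.57, 10.57 and 7.10 FPKM in co-treated cells, 8.83, 10.01 and 9.57 in UVA cells and 8.22, 8.96 and 9.21 in control cells. The groups overlapped, and the co-treated libraries held both the highest and the lowest value. The log2 fold change was 0.12 ± 0.10 in UVA against control (95% interval -0.08 to 0.32, adjusted p = 0.406) and 0.05 ± 0.10 in co-treated against control (95% interval -0.16 to 0.25, adjusted p = 0.769). Of the other 6 genes in the list of SRF and its cofactors, Mrtfa and Mrtfb, the monomer-sensing coactivators, had log2 fold changes of -0.02 (adjusted p = 0.853) and -0.01 (adjusted p = 0.893) in UVA against control. Elk1 (0.07, adjusted p = 0.626) and Elk4 (0.08, adjusted p = 0.282) did not pass either. Elk3 rose by 0.12 in UVA cells (adjusted p = 0.0270), a call that was lost without any 1 of the control replicates, without UVA replicate 2 and without UVA replicate 3, and also with no low-count filter or on log2(TPM + 1). In co-treated against control Elk3 rose by 0.16 (adjusted p = 0.00363), a call kept in all 17 other settings. Elk3 shares 19658 bases with Cdk17 on the opposite strand, and whether counting used strand is not known.

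Vcl, which links the filaments to integrin adhesions through talin, was lower in every irradiated library. It had 20.88, 20.94 and 19.05 FPKM in co-treated cells, 20.99, 20.06 and 20.37 in UVA cells and 25.28, 24.71 and 25.71 in control cells. Both irradiated groups lay below the control group without overlap. Vcl fell in UVA cells by 0.29 (log2; SE 0.04, adjusted p = 9.33e-06) and in co-treated cells by 0.31 relative to control (adjusted p = 3.84e-06). Without strand, reads from the stretch shared with Ap3m1 cannot be assigned to either gene.

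In all, 6 of the 10 members were tested, each with at least 70 counts in every library, and 4 lay below the filter in all groups. The counts that follow are descriptions, since the members were listed with earlier results of these data known. In UVA against control, 4 of the 6 fell, 0 rose and 2 did not pass, beside 29.3% of all 14151 tested genes called, 14.6% lower and 14.7% higher. The groups did not overlap for 5 of the 6, beside 42% of all tested genes. The median log2 fold change of the 6 was -0.31, and that of all tested genes was 0.003. In co-treated against control, 4 of the 6 fell and 0 rose, beside 25.8% of all genes called, 12.9% lower and 13% higher, and 5 of the 6 did not overlap, beside 39.7%. Between co-treated and UVA cells 0 of the 6 passed with edgeR or with DESeq2, and 1 of them, Acta2, had an unadjusted p under 0.05. Of all 14151 tested genes, 957 had an unadjusted p under 0.05 there. In that comparison 0.0353% of all genes, 5 in number, were called, and 10.8% had groups that did not overlap, against 0 of the 6 members.

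For co-treated against UVA the 95% interval of the log2 fold change was -0.14 to 0.13 for Cnn2, -0.11 to 0.08 for Tpm1, -0.09 to 0.12 for Tpm2, -0.11 to 0.07 for Vcl and -0.27 to 0.14 for Srf. Adjusted p-values of these 5 genes ran from 0.931 to 0.992. That of Acta2 was the only one of the 6 intervals that did not include 0.

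**Figure D4:**
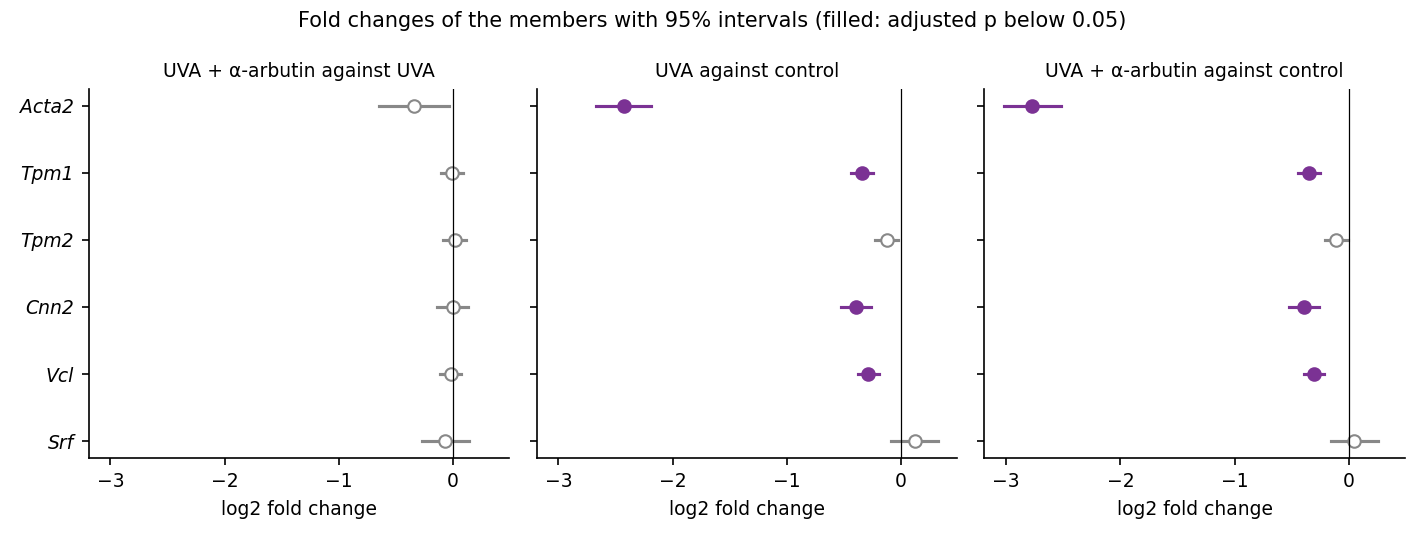
Log2 fold change of the 6 tested members with 95% intervals in 3 comparisons: co-treated against UVA, UVA against control and co-treated against control. Filled points have an adjusted p below 0.05 (edgeR); Acta2 stands at -2.43 and -2.77 against control, Cnn2, Tpm1 and Vcl between -0.29 and -0.40, and no point is filled between co-treated and UVA cells.

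Per length, the order of the members differed between irradiated and control cells at 1 main place. In control cells it was Cnn2, Tpm1, Tpm2, Vcl, Acta2, Srf, Actg2, Tagln, Cnn1 and Myl9 from the highest to the lowest mean FPKM. From Cnn2 down to Srf no neighbours overlapped between the control libraries, and Srf did not overlap Actg2, while Actg2 with Tagln and Cnn1 with Myl9 did overlap. In UVA cells and in co-treated cells Acta2 stood below Srf, at 2.77 ± 0.345 FPKM beside 9.47 ± 0.596 FPKM for Srf in UVA cells and at 2.19 ± 0.480 FPKM beside 9.08 ± 1.79 FPKM in co-treated cells. In co-treated cells Tagln also stood above Actg2, with overlap. In control cells Acta2 was at 15.1 ± 0.946 FPKM and Srf at 8.80 ± 0.515 FPKM (SD, n = 3 each). Cnn2 and Tpm1 overlapped in UVA cells but not in co-treated or control cells.

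Wider lists of the pathway, also chosen with earlier results of these data known, were described in the same fit. Their counts are to be read beside the 14.6% of all tested genes called lower and the 14.7% called higher in UVA against control. Among 21 tested further cytoskeletal genes known as MRTF and SRF targets, 8 fell and 2 rose in UVA against control, with a median log2 fold change of -0.13. Zyx (zyxin, of focal adhesions and stress fibres) fell by 0.45 (adjusted p = 6.66e-07), Filip1l (a filamin-interacting protein) by 0.40 (adjusted p = 1.39e-06) and Cald1 (caldesmon, which binds actin and restrains myosin) by 0.29 (adjusted p = 2.15e-06). Actn4, an α-actinin that crosslinks actin, rose by 0.36 (adjusted p = 4.52e-08). Across the other settings 7 to 9 of this list were called lower and 2 or 3 higher. Filip1l lies wholly within Cmss1 on the opposite strand.

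The immediate early genes of the other SRF arm were mostly higher in UVA cells. Of 9 tested, 7 rose, 0 fell and 2 (Egr2 at -0.12 and Nr4a1 at -0.27) did not pass in UVA against control, with a median log2 fold change of 0.34. Egr3, a zinc-finger transcription factor, had 2.15, 1.58 and 1.51 FPKM in co-treated cells, 2.29, 1.75 and 2.16 in UVA cells and 1.19, 1.17 and 1.07 in control cells, and rose by 0.88 (adjusted p = 5.04e-05), or by 0.51 with limma on log2(FPKM + 1). Junb, a subunit of AP-1, rose by 0.48 (adjusted p = 0.00150), or by 0.32 without UVA replicate 3. Junb shares 351 bases with Prdx2 on the opposite strand. Mcl1, which opposes apoptosis, rose by 0.26 (adjusted p = 2.65e-05) and Egr1 by 0.32 (adjusted p = 0.00458). Across the other settings 4 to 7 of this list were called higher and 0 or 1 lower. The count of genes called higher was 4 without control replicate 3, where Egr1 was among those lost (as it was with limma on log2(FPKM + 1)), and, with limma on log2(TPM + 1), also 4. In co-treated against control 4 of the 9 rose and 1, Nr4a1 (an orphan nuclear receptor), fell by 0.40 (adjusted p = 0.0170). Across the other settings 3 or 4 were called higher and 0 or 1 lower. The rise of Egr1 (0.24, adjusted p = 0.0351) was no longer called in 7 of 17 settings. That Nr4a1 call was lost without either of control replicates 1 and 2 and without either of co-treated replicates 2 and 3, and with limma on log2(FPKM + 1) or log2(TPM + 1). Its value was -0.61 without co-treated replicate 1 and -0.27 without co-treated replicate 3.

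Among 11 tested partners of vinculin in focal adhesions, 3 fell and 1 rose in UVA against control, which is near the 29.3% of all tested genes called in that comparison. Besides Zyx, the adaptors Tns1 (tensin 1) and Tln2 (talin 2) fell by 0.43 (adjusted p = 6.21e-06) and 0.21 (adjusted p = 0.00681), and Pxn (paxillin) rose by 0.16 (adjusted p = 0.0154). Pxn was no longer called without control replicate 1, control replicate 2, UVA replicate 2 or UVA replicate 3, and Tln2 not without control replicate 3 or UVA replicate 2. Both calls were lost with limma on log2(FPKM + 1), and that of Pxn also on log2(TPM + 1). In co-treated against control 3 of the 11 fell and 0 rose, beside 12.9% of all tested genes called lower and 13% called higher.

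In co-treated against UVA cells 0 genes passed in any of these wider lists with edgeR. At an unadjusted p under 0.05 there were 3 of the 21 further MRTF and SRF targets and 0 of the 9 immediate early genes. Of the 11 partners of vinculin 1 was under it, and of all 14151 tested genes 957 were. DESeq2 also called 0 genes of these lists.

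**Figure D5:**
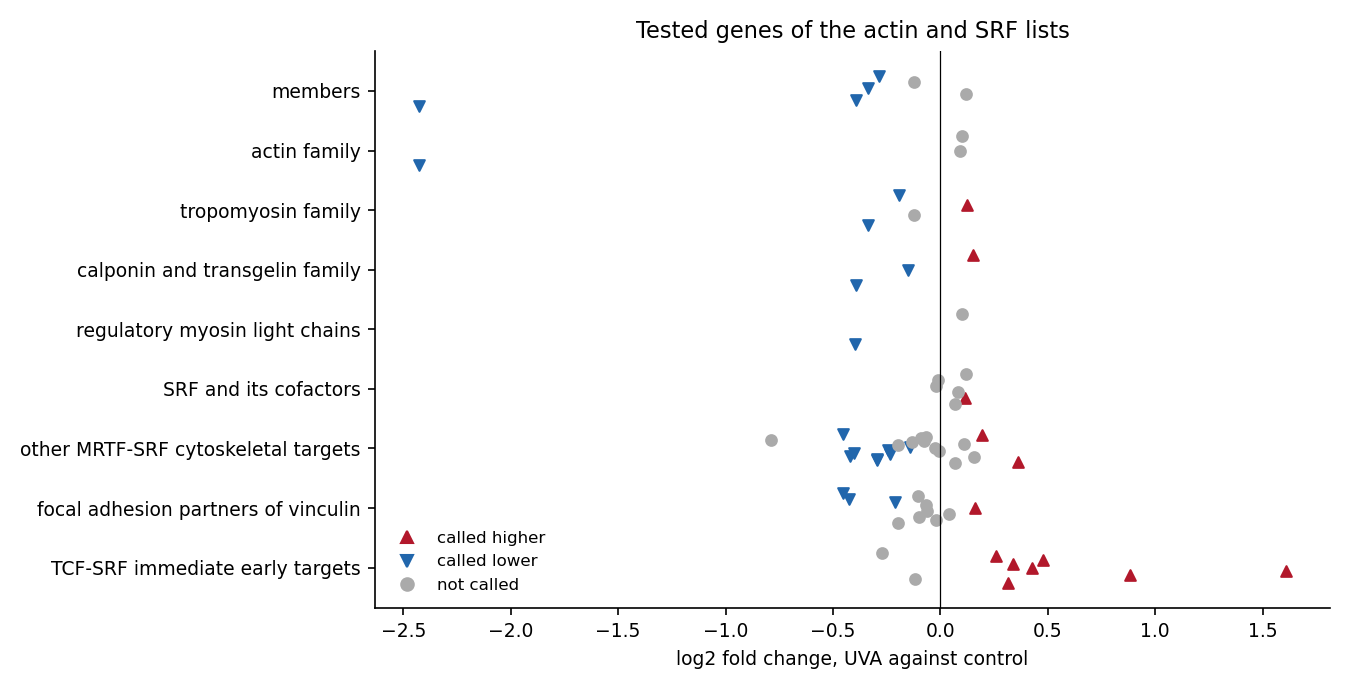
Log2 fold change in UVA against control of each tested gene in 9 lists, with triangles for genes called higher or lower (edgeR, adjusted p below 0.05) and grey points for the rest. Acta2 stands alone at -2.43, most cytoskeletal genes lie within 0.5 of 0, and the immediate early genes lie mostly right of 0. A gene in several lists is drawn in each.

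The genes whose profile over the 9 libraries was nearest to that of Acta2 were sought among 8830 tested genes. These had a mean of at least 10 CPM, were not members and did not carry a provisional symbol. Nearness was the root mean square difference of log2(CPM + 1) after subtracting each gene's control mean. The nearest were Cemip at 0.278, Ogn at 0.318, Adamts2 at 0.530, Thbs1 at 0.539 and Svep1 at 0.612 log2 units. Cemip, which takes part in hyaluronan breakdown, averaged 7.90 CPM in co-treated cells, 6.93 CPM in UVA cells and 38.6 CPM in control cells, and Acta2 averaged 4.81 CPM in co-treated cells, 6.13 CPM in UVA cells and 32.9 CPM in control cells. Ogn, a small leucine-rich proteoglycan, averaged 4.66 CPM in co-treated cells, 5.22 CPM in UVA cells and 35.6 CPM in control cells, and lies within the span of Cenpp on the opposite strand. Adamts2, a procollagen proteinase, Thbs1, thrombospondin 1, and Svep1, a large matrix protein, had log2 fold changes of -1.93, -1.75 and -1.79 in UVA against control. Since these genes were chosen for their likeness to Acta2, the values are descriptions. RefSeq windows were present for Cemip, Ogn, Adamts2 and Svep1, with 0 CArG boxes and 0 CArG-like matches.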

How the data were processed

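RNA of 9 NIH/3T3 libraries was compared in 3 groups of 3. The control group was taken from the titles and the irradiated groups from the treatment labels. The UVA group is titled MOCK, a word that does not name UVA. The control columns of the table carry a prefix of their own and were mapped to the control titles by elimination, since the remaining prefixes match titles by name. Per the submitters' processing notes, the tools named are HISAT2 2.2.1, cutadapt 1.9.1, bcl2fastq 2.20.0.422 and HTSeq 0.6.1, with genome build mm39; the sources used here give neither annotation release nor strandedness. Per the file headers, the authors deposited a raw count and an FPKM value per gene. All 510219 deposited FPKM values equalled count over exonic size and total count within 0.011.

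Counts of all genes entered edgeR 4.0.16 (filterByExpr with a minimum count of 10, TMM factors of 0.992 to 1.007, quasi-likelihood test, two-sided) in R 4.3.3, fitted on group with all 9 libraries; 14151 genes passed. Calls are at 0.05 after Benjamini-Hochberg adjustment across them. Levels are deposited FPKM or TMM-scaled CPM. Genes below the filter are given as counts, with exact Poisson or binomial 95% intervals of summed counts. The edgeR fit was also run on counts simulated with the spread fitted to these libraries. Such a run cannot show whether that spread is technical, and its outcome is not given here. Alternatives were DESeq2 1.42.0, upper-quartile scaling, other filters, limma 3.58.1 on log2(FPKM + 1) or log2(TPM + 1), a fit of the compared groups alone, a replicate block and leaving out each library; TPM was added after seeing the data. Libraries of a group differed beyond counting noise, so none was counted as a duplicate.

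Named genes are all members, their families, SRF and its cofactors, up to 4 genes of each wider list with the smallest p in UVA against control, and the 5 genes nearest to Acta2; Nr4a1, Egr2 and the marker genes were named after their values were seen. Members and lists were chosen with earlier results of these data known. 1 wider list is not reported here. Promoter windows are from RefSeq on GRCm38.p6 and were not placed on mm39.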

Additional observations from a re-analysis of the deposited data

How the results depend on the processing

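Over 17 other settings, the falls of Acta2, Cnn2, Tpm1 and Vcl against control kept their direction and stayed called in both comparisons; the log2 fold change of Acta2 in UVA against control ran from -2.53 to -2.09. Tpm2 in UVA against control passed in 7 of the 17 settings. No member passed between co-treated and UVA cells in any setting. Sign changes were seen only in values that passed no test, and the cause was not tested. In co-treated against UVA cells, Cnn2 was 0.006817 with limma on log2(FPKM + 1) and 0.02575 on log2(TPM + 1), where Tpm1 was 0.01714 and Vcl 0.004739. With 1 library left out, co-treated against UVA ran from -0.1116 to 0.07576 for Cnn2, -0.1948 to 0.08186 for Srf, -0.0797 to 0.03731 for Tpm1, -0.01504 to 0.04051 for Tpm2 and -0.04408 to 0.02166 for Vcl, and Srf in co-treated against control ran from -0.07708 to 0.1999. Acta2 in co-treated against UVA ran from -0.5387 without co-treated replicate 2 to -0.2424 without co-treated replicate 3. Over all genes, log2(TPM + 1) gave 2287 lower and 1182 higher calls in UVA against control, beside 2064 and 2078.

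The replicate numbers were not taken as pairs: deviations of same-numbered libraries correlated at r between -0.006 and 0.097, although each co-treated library correlated best with the UVA library of its own number. With the replicate block, 2179 genes were called lower and 2180 higher in UVA against control, and 3 lower and 16 higher in co-treated against UVA, beside 1 and 4. In co-treated against UVA the counts of lower and higher calls were 9 and 20 with no low-count filter, 1 and 6 with DESeq2, 0 and 0 with limma on log2(FPKM + 1) or log2(TPM + 1), 3 and 5 without UVA replicate 2, 8 and 14 without UVA replicate 3, 0 and 1 without co-treated replicate 2 and 0 and 2 without co-treated replicate 3. With the replicate block Tpm2 was -0.125 in UVA against control (adjusted p = 0.0479), and the calls of the other members were as without the block. Summed counts of Tagln, Cnn1, Actg2 and Myl9 were at most 21 a group, so depth limits what can be said of them.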
